A study of Mus musculus with 12 samples.

Results

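The Alox5 knockout and the wild-type left ventricle were compared in how much each gene differed between TAC and NS. The quantity is a difference of 2 differences on the log2 scale, Alox5ko_TAC minus Alox5ko_NS less WT_TAC minus WT_NS, called the response difference here. A positive response difference means that the value of TAC against NS was higher in Alox5ko than in WT. It was computed for the 15724 genes, of 49492 rows in the count table, that had 10 or more counts in at least 3 libraries. All 12 libraries entered, 3 in each of 4 groups. The groups were Alox5ko_TAC (Alox5 knockout with TAC), Alox5ko_NS (Alox5 knockout with the treatment labelled NS), WT_TAC (wild type with TAC) and WT_NS (wild type with NS). In transverse aortic constriction (TAC) the aortic arch is tied to a smaller bore, which puts the left ventricle under pressure. The labels do not spell out NS. All 4 groups are mouse left ventricle, and the labels give no age, sex, strain or time after the operation. The design text speaks of cardiac deficiency of Alox5, but no driver of the deletion is given, so the cells that lost the gene are not known here.

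Alox5 encodes 5-lipoxygenase, the enzyme that turns arachidonic acid into the precursor of the leukotrienes. Pressure overload makes cardiac myocytes grow, brings back genes of the fetal heart, and adds matrix made by fibroblasts. Growth raises protein synthesis, and chaperones of the endoplasmic reticulum (ER), which fold secreted and membrane proteins, are induced when folding falls behind. Interferon-stimulated genes are a second shared program, switched on by interferon receptors in many cell types of the heart. A response difference can come from any of the 4 groups, so each gene is described by its level in all of them.

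Library totals ran from 20889431 to 27311196 counts. Levels are given as CPM (counts scaled to library size, with TMM factors), and summed levels of a gene list as CPM of the library total. The 10 cardiomyocyte markers summed to 149900 to 187600 CPM over the 12 libraries, and none of 8 lung and airway markers reached the count limit. Alox5 was at 1.36, 1.14 and 1.1 CPM in Alox5ko_TAC and 1.46, 1.12 and 0.934 CPM in Alox5ko_NS, against 13.4, 9.56 and 12.2 CPM in WT_TAC and 13.0, 10.6 and 13.9 CPM in WT_NS. It was low in all 6 knockout libraries, and its response difference was 0.12 (SE 0.283, adjusted p = 0.999). Runx2, the transcription factor named in the series title, had 3, 8 and 3 counts in Alox5ko_TAC and 12, 8 and 3 in Alox5ko_NS, against 12, 6 and 6 in WT_TAC and 4, 2 and 4 in WT_NS, and was too low to be tested. Nothing in the labels ties libraries to separate animals, so a p-value here reflects the spread among libraries, which may be technical.

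No response difference passed the threshold. Of 15724 genes, 0 (0.0%) had an adjusted p under 0.05 by edgeR's quasi-likelihood test, with Benjamini-Hochberg adjustment over all of them, and the smallest adjusted p was 0.506. At an unadjusted p under 0.05 there were 840 genes (5.34%), 402 with a positive value (2.56%) and 438 with a negative one (2.79%). The 5.34% is close to the share of 0.05 that such a threshold gives when no gene differs. Counts of list members at this threshold are to be set beside it. With libraries scaled by their totals alone, the split was 672 positive and 252 negative, so the balance of signs depends on the scaling, which gave a median over all genes of 0.06, against -0.01 with TMM. DESeq2 called 1 gene, Errfi1 (adjusted p = 0.00682), with 672 genes at an unadjusted p under 0.05, and limma-voom called 1, the gene model Gm15444 (adjusted p = 0.00604), with 885. Gm15444 reached the count limit only in the 3 Alox5ko_TAC libraries, where it is high, so it had to differ and the call is no support. Same-numbered WT libraries correlated weakly in their deviations from group means, at values that some differently numbered libraries also reached. With the number as a block within WT, added after the data were seen, 1 gene was called, Nab2 (adjusted p = 0.0331). With a block within each genotype there were 4, Nab2, Errfi1, Tmem82 and Hsph1 (adjusted p = 0.0108, 0.0108, 0.0172 and 0.0172). Same-numbered TAC and NS libraries of Alox5ko were mixed by the same measure, at -0.101, 0.248 and 0.145, so a pairing is not established there either. Leaving out 1 library gave 0 or 1 call: Tmem82 without Alox5ko_NS 1 (adjusted p = 0.0451), 2810474O19Rik without WT_TAC 1 (adjusted p = 0.0112) and Nab2 without WT_TAC 2 (adjusted p = 0.0376). The simple comparisons between 2 groups did hold calls: 211 genes (1.34%) for Alox5ko_TAC minus Alox5ko_NS, 115 higher (0.731%) and 96 lower (0.611%), and 119 (0.757%) for WT_TAC minus WT_NS, 74 higher (0.471%) and 45 lower (0.286%). Alox5ko_TAC minus WT_TAC had 17 (0.108%), 12 higher (0.0763%) and 5 lower (0.0318%), and Alox5ko_NS minus WT_NS had 6 (0.0382%), 2 higher (0.0127%) and 4 lower (0.0254%). A call in 1 genotype and none in the other is not a difference between them, so such a call is not read as a response difference. The first pair of counts ran from 47 to 375 and from 17 to 181 with 1 library left out, so a simple call can rest on 1 library.

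Response differences were small for most genes. Their median size was 0.15 on the log2 scale, against a median SE of 0.21, and the 99th percentile of size was 1.36. A size of 1 or more, a 2-fold difference between the responses, was reached by 425 genes (2.7%), of which 374 had a mean level under a log2 CPM of 1. Among the 1595 genes with a mean log2 CPM of 6 or more, 3 reached it. The TAC values of the 2 genotypes had opposite signs for 37.4% of all tested genes and for 81.3% of the 840 with an unadjusted p under 0.05. Signs were counted whatever the error of the value, so many belong to values near 0. A gene is in the 840 because its responses differ, so that share is a description of the selection.

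**Figure D1:**
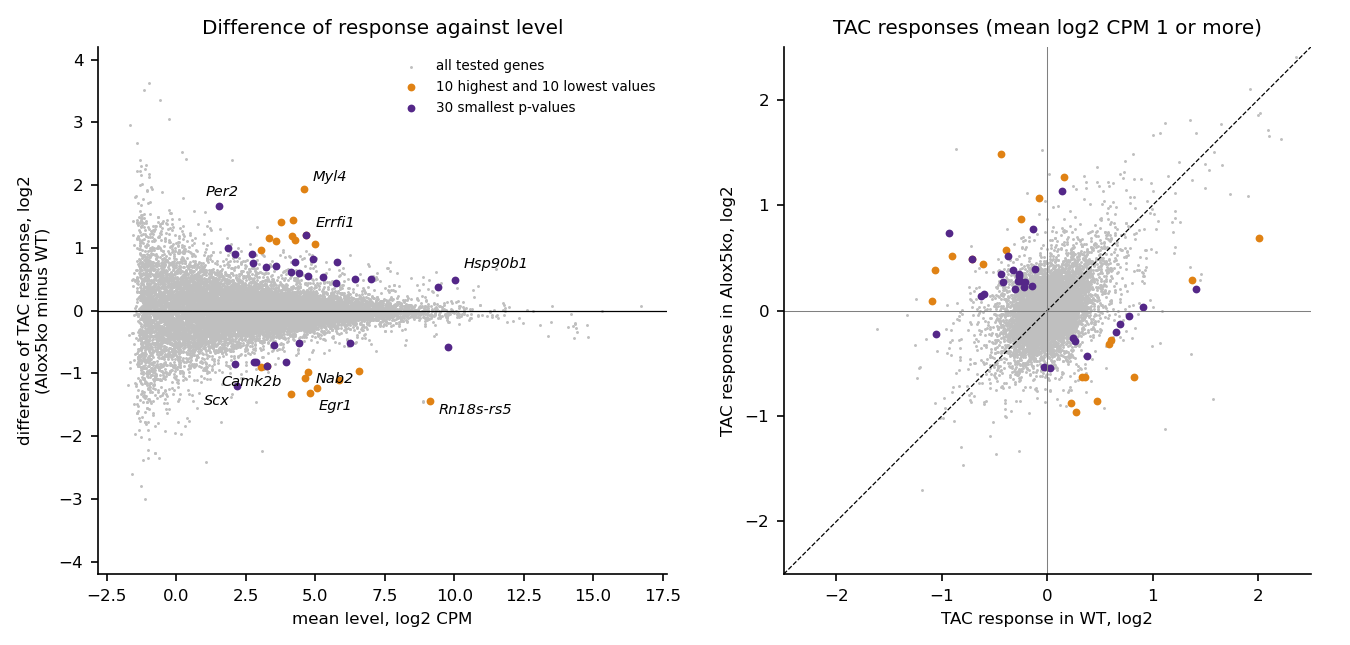
Left, the response difference of each of 15724 tested genes (log2, Alox5ko minus WT) against its mean level (log2 CPM), with the 30 smallest p-values in purple and the 10 highest and 10 lowest values among genes of mean log2 CPM 3 or more in orange; 3 genes lie outside the axis. Right, the TAC response in Alox5ko (Alox5ko_TAC minus Alox5ko_NS, y axis) against that in WT (WT_TAC minus WT_NS, x axis), both log2, for 11708 genes, with the dashed line marking equal responses and 3 genes outside the axes. The purple genes lie away from the dashed line, and 25 of the 30 have responses of opposite sign.

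A group was said to carry a gene's difference when its mean log2 CPM lay far from the other 3 groups, and those 3 spread over less than 0.5 of that distance. Alox5ko_TAC carried 1154 genes (7.34%), Alox5ko_NS 1318 (8.38%), WT_TAC 1349 (8.58%) and WT_NS 890 (5.66%), so that 30% of tested genes had a carrying group. The count of Alox5ko_TAC depends on which libraries enter: without Alox5ko_TAC 2 and WT_TAC 1 together it was 1783 genes, against 1154 with all libraries. The counts of the other groups without that pair are not given, so no order of the groups is drawn. By a stricter count, all 3 libraries of a group above or all below the other 9, Alox5ko_TAC stood apart for 242 genes (1.54%), Alox5ko_NS for 408 (2.59%), WT_TAC for 402 (2.56%) and WT_NS for 196 (1.25%), 1248 genes (7.94%) in all. Among the 840 genes at an unadjusted p under 0.05, Alox5ko_TAC stood apart for 71, Alox5ko_NS for 73, WT_TAC for 89 and WT_NS for 31, and the other 576 had no such group. These group means are the values behind the test, so the counts describe the differences and do not test them.

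The 30 genes with the smallest p-values, among those with a mean log2 CPM of 1 or more and with predicted gene models left out, had unadjusted p-values of 0.000103 to 0.00208 and adjusted p-values of 0.506 to 0.624. In the simple comparisons 4 of them were called for Alox5ko_TAC minus Alox5ko_NS, 6 for WT_TAC minus WT_NS and 1 for Alox5ko_TAC minus WT_TAC. Of the 30, 20 had a positive response difference and 10 a negative one, with sizes of 0.38 to 1.67. WT_TAC carried 4 of them, Alox5ko_TAC 1, Alox5ko_NS 1 and WT_NS 0, and 24 had no single carrying group. In 25 of the 30 the TAC value had opposite signs in Alox5ko and WT.

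Each of the 4 genes carried by WT_TAC (Camk2b, Tmem82, Thrsp and Efna1) changed with TAC in wild type and was not called in the knockout. Camk2b, the beta subunit of the calcium/calmodulin-dependent kinase CaMKII (chromosome 11, 5969644 to 6066362), was at 9.38, 8.91 and 8.18 CPM in Alox5ko_TAC and 8.89, 7.76 and 9.34 CPM in Alox5ko_NS, against 14.1, 11.4 and 14.8 CPM in WT_TAC and 5.95, 7.56 and 7.95 CPM in WT_NS. Every WT_TAC library was above the other 9. Camk2b rose in WT_TAC by 0.91 (adjusted p = 0.00433), a call kept whichever of the 6 libraries was left out, and had 0.03 in Alox5ko (adjusted p = 0.953). Its response difference was -0.88 (SE 0.187, adjusted p = 0.506).

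Tmem82, a transmembrane protein gene (chromosome 4, 141613376 to 141618633), was at 32.0, 27.8 and 26.4 CPM in Alox5ko_TAC and 41.8, 28.1 and 30.7 CPM in Alox5ko_NS, against 18.8, 17.2 and 19.4 CPM in WT_TAC and 37.9, 35.0 and 42.0 CPM in WT_NS. All WT_TAC libraries were below the other 9. It fell in WT_TAC by 1.05 (adjusted p = 0.00251), kept with each of 6 libraries left out, against -0.22 in Alox5ko (adjusted p = 0.442), and its response difference was 0.83 (SE 0.179, adjusted p = 0.506). AI507597, on the opposite strand, shares 23.7% of the exon bases of Tmem82, and whether counting used strand is not stated. Thrsp, a nuclear regulator of lipid synthesis, was at 25.4, 23.8 and 19.8 CPM in Alox5ko_TAC and 20.9, 16.7 and 25.3 CPM in Alox5ko_NS, against 14.2, 12.8 and 11.8 CPM in WT_TAC and 20.99, 20.1 and 18.99 CPM in WT_NS. It fell in WT_TAC by 0.63 (adjusted p = 0.0350) and was higher by 0.83 in Alox5ko_TAC than in WT_TAC (adjusted p = 0.00899), with a response difference of 0.77 (SE 0.185, adjusted p = 0.537). The first call was lost without any 1 of 5 libraries (WT_NS 1, 2 or 3, WT_TAC 2 or 3), and the second without Alox5ko_TAC 1, Alox5ko_TAC 2 or WT_TAC 3.

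Scx, Efna1 and Prickle1 also rose with TAC in wild type, and of these WT_TAC carried Efna1. Scx, scleraxis, a transcription factor of tendon and matrix-forming cells, was at 5.18, 2.97 and 4.69 CPM in Alox5ko_TAC and 3.55, 3.36 and 4.27 CPM in Alox5ko_NS, against 7.66, 5.10 and 9.12 CPM in WT_TAC and 2.91, 2.51 and 2.78 CPM in WT_NS. It rose in WT_TAC by 1.41 (adjusted p = 0.00606), kept with each of 6 libraries left out, against 0.21 in Alox5ko (adjusted p = 0.726). WT_NS was the lowest group, with every library below the other 9, and the response difference of Scx was -1.21 (SE 0.308, adjusted p = 0.537). Efna1, the ephrin-A1 ligand, and Prickle1, of planar cell polarity signalling, rose in WT_TAC by 0.77 and 0.69 (adjusted p = 0.0328 and 0.0471), and had -0.05 and -0.13 in Alox5ko (adjusted p = 0.935 and 0.776). The call of Efna1 was kept only without WT_TAC 1, and that of Prickle1 was lost without WT_NS 1, WT_NS 2, WT_TAC 2 or WT_TAC 3. Their response differences were -0.82 (SE 0.228) and -0.82 (SE 0.226), with an adjusted p of 0.624 each.

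Other genes changed with TAC in the knockout and not by a call in wild type. Mylk4, a kinase of the myosin light chain kinase family (chromosome 13, 32700827 to 32783954), was at 59.1, 58.9 and 63.6 CPM in Alox5ko_TAC and 87.1, 89.1 and 87.6 CPM in Alox5ko_NS, against 69.0, 77.9 and 86.7 CPM in WT_TAC and 75.3, 75.8 and 87.0 CPM in WT_NS. The Alox5ko_TAC libraries were the lowest of the 12, and Mylk4 fell in Alox5ko_TAC by 0.54 (adjusted p = 0.00528), kept with each of 6 libraries left out, against -0.03 in WT (adjusted p = 0.945). Its response difference was -0.51 (SE 0.122, adjusted p = 0.537). Inhbb, the beta B subunit of activin and inhibin, was at 4.88, 5.67 and 4.59 CPM in Alox5ko_TAC and 1.91, 2.87 and 2.09 CPM in Alox5ko_NS, against 4.60, 3.35 and 3.15 CPM in WT_TAC and 3.86, 3.20 and 3.01 CPM in WT_NS. It was lowest in Alox5ko_NS, below the other 9 libraries, and rose in Alox5ko_TAC by 1.14 (adjusted p = 0.00694), kept with each of 6 libraries left out, against 0.14 in WT (adjusted p = 0.854). Zmynd15, a zinc finger protein gene that shares 12.5% of its exon bases with Cxcl16 on the opposite strand, was at 5.05, 5.53 and 4.97 CPM in Alox5ko_TAC and 3.21, 2.91 and 2.98 CPM in Alox5ko_NS, against 4.84, 3.99 and 3.995 CPM in WT_TAC and 5.41, 4.88 and 3.77 CPM in WT_NS. Alox5ko_NS carried it, and it rose in Alox5ko_TAC by 0.77 (adjusted p = 0.0227), a call kept only without Alox5ko_TAC 2. The response difference of Zmynd15 was 0.91 (SE 0.224, adjusted p = 0.537).

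Most of the 30 genes had small TAC values of opposite sign and no group far from the other 3. Rell1, a membrane protein of the RELT family, had the smallest p-value and was at 12.1, 13.7 and 12.9 CPM in Alox5ko_TAC and 9.79, 10.2 and 9.69 CPM in Alox5ko_NS, against 12.5, 10.5 and 10.8 CPM in WT_TAC and 13.6, 14.9 and 13.8 CPM in WT_NS. The Alox5ko_NS libraries were below the other 9, and the WT_NS libraries included the 2 highest. Its values were 0.38 in Alox5ko and -0.33 in WT (adjusted p = 0.0768 and 0.160), and the response difference was 0.71 (SE 0.145, adjusted p = 0.506). Errfi1, a feedback inhibitor of the epidermal growth factor receptor, was at 21.5, 32.6 and 23.5 CPM in Alox5ko_TAC and 18.9, 20.3 and 16.0 CPM in Alox5ko_NS, against 24.8, 21.2 and 17.5 CPM in WT_TAC and 33.9, 42.0 and 28.5 CPM in WT_NS. The libraries of WT_NS were above those of Alox5ko_NS, and its values were 0.49 in Alox5ko and -0.72 in WT (adjusted p = 0.241 and 0.104). The response difference of Errfi1 was 1.20 (SE 0.259, adjusted p = 0.537), and with a block within WT its value in WT passed the threshold (adjusted p = 0.0472).

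**Figure D2:**
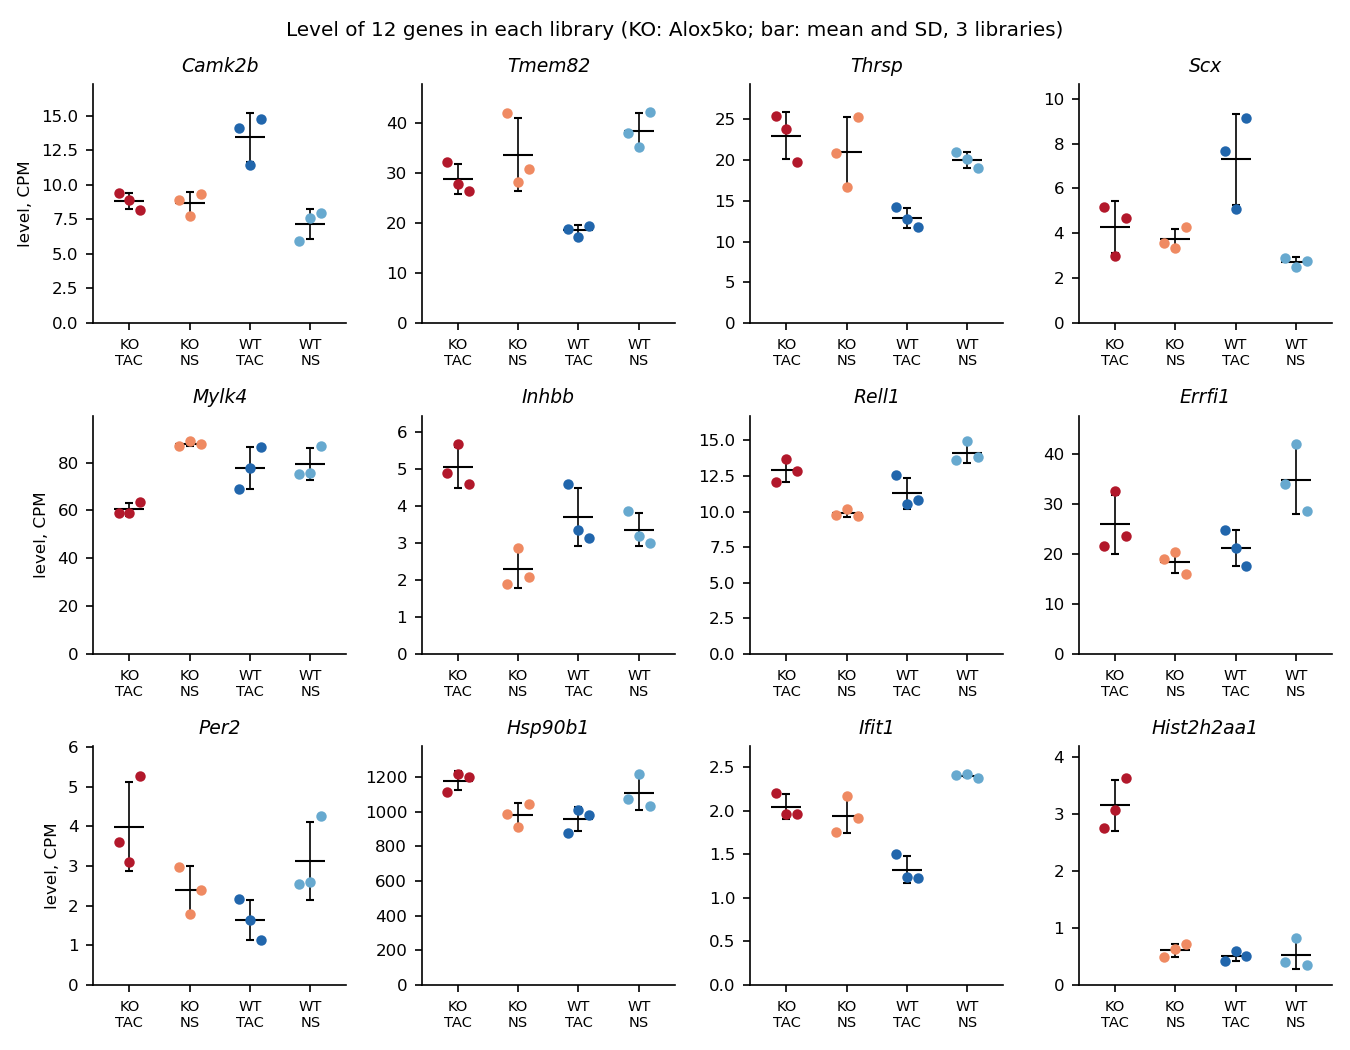
Level (CPM, y axes from 0) of 12 genes in each of 12 libraries, with points for libraries and a bar for the mean and SD of 3 libraries; KO stands for Alox5ko. WT_TAC is the group apart for Camk2b, Tmem82, Thrsp and Ifit1, Alox5ko_TAC for Mylk4 and Hist2h2aa1, Alox5ko_NS for Inhbb and Rell1, and WT_NS for Scx, where it is lowest, while Errfi1, Per2 and Hsp90b1 have no single group apart.

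Of the 30 genes with the smallest p-values, 6 were in the list of 23 ER chaperones and folding enzymes, which is 23 of the 15724 tested genes: Hsp90b1, Creld2, Manf, Hyou1, Pdia4 and Calr. Serpinh1, a collagen chaperone of the ER, and Plod1, a collagen lysyl hydroxylase, were also among the 30 and are not in that list. Of 23 ER chaperones and folding enzymes, all tested, 18 had a positive response difference, and the median was 0.16, against a median of -0.01 over all tested genes, of which 49.0% were positive. Of the 23, 11 (47.8%, against 5.34% of all tested genes) had an unadjusted p under 0.05, all positive, and none had an adjusted p under 0.05. All 11 had a positive TAC value in Alox5ko and a negative one in WT. So did 334 of the 402 tested genes with a positive value at that threshold, so these signs follow largely from the selection. The list was singled out after its values were seen, and no test of the list as a whole was made.

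Hsp90b1, the ER form of HSP90 (chromosome 10, 86690209 to 86705509), was at 1115, 1216 and 1201 CPM in Alox5ko_TAC and 983, 908 and 1044 CPM in Alox5ko_NS, against 875, 1006 and 982 CPM in WT_TAC and 1074, 1216 and 1031 CPM in WT_NS. Alox5ko_TAC did not overlap Alox5ko_NS or WT_TAC, and it overlapped WT_NS. Its response difference was 0.48 (SE 0.119, adjusted p = 0.537), from 0.27 in Alox5ko and -0.21 in WT (adjusted p = 0.129 and 0.293). 1810014B01Rik, on the opposite strand, shares 10.3% of the exon bases of Hsp90b1. Calr, calreticulin, a chaperone of glycoproteins that binds calcium, was at 726, 729 and 743 CPM in Alox5ko_TAC and 653, 583 and 632 CPM in Alox5ko_NS, against 648, 659 and 666 CPM in WT_TAC and 768, 744 and 669 CPM in WT_NS. Alox5ko_TAC was again above Alox5ko_NS and WT_TAC and within the range of WT_NS, and the response difference was 0.38 (SE 0.105, adjusted p = 0.624).

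Manf, a secreted protein induced by ER stress, was at 61.6, 62.4 and 63.0 CPM in Alox5ko_TAC and 49.8, 40.5 and 57.2 CPM in Alox5ko_NS, against 38.6, 46.7 and 50.1 CPM in WT_TAC and 65.5, 68.7 and 48.8 CPM in WT_NS, with a response difference of 0.78 (SE 0.193, adjusted p = 0.537). Creld2, a disulfide isomerase-like protein of the ER, was at 24.9, 22.2 and 24.6 CPM in Alox5ko_TAC and 18.6, 16.7 and 21.8 CPM in Alox5ko_NS, against 19.7, 19.7 and 19.1 CPM in WT_TAC and 22.04, 26.5 and 21.9 CPM in WT_NS, with a response difference of 0.60 (SE 0.151, adjusted p = 0.537). Hyou1, an ER chaperone of the HSP110 class, had a response difference of 0.54, Pdia4, a disulfide isomerase, 0.51, and Hspa5, the master ER chaperone BiP, 0.42 (adjusted p = 0.585, 0.624 and 0.627). The highest value in the list was that of Sdf2l1, an ER protein that works with BiP, at 0.93 (adjusted p = 0.825), and the lowest that of the oxidase gene Ero1lb, at -0.49 (adjusted p = 0.999). The lectin chaperone Canx and the disulfide isomerase P4hb had values of -0.00 and -0.01 (adjusted p = 0.9998 and 0.999).

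The summed level of the 23 genes was 3672, 3925 and 3834 CPM in Alox5ko_TAC and 3394, 3116 and 3367 CPM in Alox5ko_NS, against 3221, 3435 and 3430 CPM in WT_TAC and 3886, 4084 and 3532 CPM in WT_NS. Alox5ko_TAC and WT_NS were the higher pair of groups, and Alox5ko_NS and WT_TAC the lower pair. Alox5ko_TAC had the highest mean level for 10 of the 23 genes and WT_NS for 8, and the lowest was in WT_TAC for 10 and in Alox5ko_NS for 9. Over all tested genes Alox5ko_TAC was highest for 3612 and WT_NS for 3436, and WT_TAC was lowest for 4018 and Alox5ko_NS for 4375. The median over the list stayed positive with each library left out, from 0.10 without WT_NS 2 to 0.23 without Alox5ko_TAC 1. The number of members at an unadjusted p under 0.05 was 9 to 11 with 1 library left out, and 10 without WT_TAC 1 and Alox5ko_TAC 2 together. With libraries scaled by their totals alone the median was 0.23, and that scaling moved the median of all genes to 0.06.

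The promoters of several of these genes hold the ER stress response element, shown here because the genes with the smallest p-values in the list include several that hold it. In RefSeq promoter windows (build GRCm38.p6, 250 bases before to 50 after a start), the letters CCAAT and CCACG with 9 bases of any kind between them, on either strand, occurred in 8 of the 22 windows of 20 list genes (36.4%), against 39 of 32851 windows of all genes (0.119%). The 8 were Calr, Canx, Creld2, Dnajc3, Ero1b (Ero1lb in the count table), Hsp90b1, Hspa5 and Pdia6. Canx, with a response difference of -0.00, and Ero1lb, with the lowest value of the list, hold a match too. The 250 bases before the start are given 5′ to 3′ on the gene's strand for Hsp90b1 (chr10:86705445-86705694, minus strand), Calr (chr8:84846932-84847181, minus strand) and Creld2 (chr15:88819396-88819645, plus strand), and for Pdia4 (chr6:47813513-47813762, minus strand), which held no match. Capitals mark the element.
Hsp90b1: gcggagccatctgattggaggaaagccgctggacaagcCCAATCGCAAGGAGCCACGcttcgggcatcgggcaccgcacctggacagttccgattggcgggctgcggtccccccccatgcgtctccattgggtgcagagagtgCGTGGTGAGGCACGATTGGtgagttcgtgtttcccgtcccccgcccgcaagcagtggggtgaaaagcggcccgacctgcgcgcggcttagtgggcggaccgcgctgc
Calr: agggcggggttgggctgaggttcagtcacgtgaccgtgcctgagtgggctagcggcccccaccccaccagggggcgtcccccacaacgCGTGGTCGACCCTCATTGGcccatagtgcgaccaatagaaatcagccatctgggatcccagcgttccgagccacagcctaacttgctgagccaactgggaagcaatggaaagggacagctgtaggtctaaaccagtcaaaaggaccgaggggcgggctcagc
Creld2: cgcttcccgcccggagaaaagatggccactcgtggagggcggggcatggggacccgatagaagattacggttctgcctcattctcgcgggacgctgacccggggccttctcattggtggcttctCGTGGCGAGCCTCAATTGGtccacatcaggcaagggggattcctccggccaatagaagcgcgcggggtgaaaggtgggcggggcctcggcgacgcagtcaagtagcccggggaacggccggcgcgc
Pdia4: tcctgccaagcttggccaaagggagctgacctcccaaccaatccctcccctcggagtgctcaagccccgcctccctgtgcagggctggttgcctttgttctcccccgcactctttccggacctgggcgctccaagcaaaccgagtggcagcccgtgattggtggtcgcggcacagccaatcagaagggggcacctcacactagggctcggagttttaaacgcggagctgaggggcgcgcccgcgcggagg

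Hsp90b1 held 2 matches, 1 on each strand, the first starting 212 bases before the start, and the matches of Calr and Creld2 began 162 and 126 bases before it. A match is a description of these letters, and the binding of any factor was not measured.

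Sensors of stress and targets of ATF4, the transcription factor of the integrated stress response, had mostly positive values as well. Of 24 tested members, 20 had a positive response difference, and the median was 0.26. An unadjusted p under 0.05 was found for 5 (20.8%, against 5.34% of all tested genes), all positive. Xbp1, the spliced transcription factor of the ER stress response, was at 60.3, 65.1 and 55.2 CPM in Alox5ko_TAC and 55.1, 48.1 and 66.6 CPM in Alox5ko_NS, against 53.0, 47.5 and 50.7 CPM in WT_TAC and 60.6, 63.6 and 63.5 CPM in WT_NS, with a response difference of 0.40 (SE 0.141, adjusted p = 0.786). Gdf15, a secreted stress cytokine, had 26, 60 and 51 counts in Alox5ko_TAC and 27, 13 and 25 in Alox5ko_NS, against 18, 13 and 10 in WT_TAC and 12, 38 and 11 in WT_NS. Alox5ko_TAC 2 and 3 were the 2 highest libraries, and its response difference was 1.80 (SE 0.677, adjusted p = 0.842). Atf3, an early stress transcription factor, had a response difference of 1.45 (SE 0.530, adjusted p = 0.868), and Ddit4, an inhibitor of mTORC1 induced by stress, 1.06 (SE 0.410, adjusted p = 0.889). Slc3a2, the heavy chain of amino acid transporters, had 0.39 (SE 0.146, adjusted p = 0.837), and the lowest value of the list was that of the serine synthesis gene Psat1, at -0.64 (adjusted p = 0.999). The list score, the median over members of log2 CPM from each gene's mean, was 0.12, 0.09 and 0.18 in Alox5ko_TAC and -0.08, -0.17 and 0.06 in Alox5ko_NS, against -0.02, -0.01 and -0.15 in WT_TAC and -0.02, 0.05 and -0.06 in WT_NS. Every Alox5ko_TAC library was above the other 9 in this score. Without WT_TAC 3 the median of the list was 0.18, and the members at an unadjusted p under 0.05 numbered 3 without WT_NS 2 and 7 without WT_TAC 1.

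Interferon-stimulated genes had the highest median among the pathway lists with at least 5 tested genes, 0.41 over 37 tested members of 38. Of the 37, 35 had a positive response difference, 13 had an unadjusted p under 0.05 with a positive value and 1 with a negative value. That is 37.8%, against 5.34% of all tested genes, and none had an adjusted p under 0.05. For 29 of the 37 (78.4%) the TAC value was positive in Alox5ko and negative in WT, against 18.0% of all tested genes. The median TAC value was 0.20 in Alox5ko and -0.16 in WT, and the median of Alox5ko against WT was 0.13 with TAC and -0.29 with NS. WT_NS had the highest mean for 19 members and Alox5ko_TAC for 15, against 21.85% and 22.97% of all tested genes. Alox5ko_NS had the lowest for 22 (59.46%) and WT_TAC for 12 (32.43%), against 27.82% and 25.55% of all tested genes, so the count of WT_TAC was near its share.

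Ifit1, which binds viral RNA, was carried by WT_TAC, at 2.21, 1.97 and 1.96 CPM in Alox5ko_TAC and 1.76, 2.16 and 1.91 CPM in Alox5ko_NS, against 1.50, 1.24 and 1.22 CPM in WT_TAC and 2.41, 2.42 and 2.38 CPM in WT_NS. It fell in WT_TAC by 0.86 (adjusted p = 0.0469), a call lost without any 1 of the 6 libraries and with a block within WT (adjusted p = 0.0571), and had 0.07 in Alox5ko (adjusted p = 0.910); its response difference was 0.93 (SE 0.274, adjusted p = 0.624). Usp18, the protease that removes ISG15 and damps interferon signalling, had the highest value of the list and was at 2.46, 2.56 and 2.54 CPM in Alox5ko_TAC and 1.31, 1.79 and 1.38 CPM in Alox5ko_NS, against 2.07, 1.37 and 1.08 CPM in WT_TAC and 2.54, 2.12 and 1.57 CPM in WT_NS. Alox5ko_TAC did not overlap Alox5ko_NS or WT_TAC, and the response difference of Usp18 was 1.21 (SE 0.346, adjusted p = 0.624).

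Irf7, a transcription factor that amplifies interferon production, was at 8.62, 10.3 and 6.84 CPM in Alox5ko_TAC and 5.61, 6.90 and 6.63 CPM in Alox5ko_NS, against 7.75, 6.78 and 4.65 CPM in WT_TAC and 8.27, 8.77 and 7.77 CPM in WT_NS, with a response difference of 0.80 (SE 0.240, adjusted p = 0.627). Bst2, tetherin, a membrane protein that holds back virus particles, was at 6.495, 7.31 and 7.17 CPM in Alox5ko_TAC and 5.23, 5.44 and 6.54 CPM in Alox5ko_NS, against 7.28, 4.93 and 5.36 CPM in WT_TAC and 7.95, 7.002 and 8.04 CPM in WT_NS, with a response difference of 0.68 (SE 0.210, adjusted p = 0.634). WT_TAC 1 was higher than the other 2 WT_TAC libraries in both genes. Isg15, the ubiquitin-like modifier, had a response difference of 0.80 (adjusted p = 0.753). The negative member was Irf1, at -0.64 (adjusted p = 0.830), the lowest value of the list.

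The summed level of the list was 304, 341 and 317 CPM in Alox5ko_TAC and 258, 286 and 291 CPM in Alox5ko_NS, against 339, 297 and 276 CPM in WT_TAC and 370, 330 and 369 CPM in WT_NS. Alox5ko_TAC did not overlap Alox5ko_NS, and WT_TAC 1 stood with WT_NS rather than with the other 2 WT_TAC libraries. Without WT_TAC 1 the median was 0.54 and 20 members had an unadjusted p under 0.05; without Alox5ko_TAC 2 the median was 0.37 with 12 members. The letters GAAA, 2 bases of any kind and GAAA again, which match the interferon-stimulated response element, occurred on either strand in 19 of the 32 windows of 27 list genes (59.4%), against 3.44% of all 32851 windows. The 250 bases before the start are given for Ifit1 (chr19:34640639-34640888, plus strand) and Bst2 (chr8:71537473-71537722, minus strand), with the matches in capitals; the 2 matches of Bst2 overlap.
Ifit1: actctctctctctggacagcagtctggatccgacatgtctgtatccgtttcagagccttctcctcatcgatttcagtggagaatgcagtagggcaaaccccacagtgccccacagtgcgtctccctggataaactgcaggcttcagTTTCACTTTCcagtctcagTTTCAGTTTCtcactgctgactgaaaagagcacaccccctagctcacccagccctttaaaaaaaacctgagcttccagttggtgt
Bst2: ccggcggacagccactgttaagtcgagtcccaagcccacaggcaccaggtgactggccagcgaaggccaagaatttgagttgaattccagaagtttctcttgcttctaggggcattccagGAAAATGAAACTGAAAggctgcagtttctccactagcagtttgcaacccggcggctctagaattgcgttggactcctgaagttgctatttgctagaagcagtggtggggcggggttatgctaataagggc

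Genes of class I antigen presentation and of the immunoproteasome, many of which interferons induce, had a median of 0.38, with 14 of 17 positive. An unadjusted p under 0.05 was found for 3 (17.6%), all positive, against 5.34% of all tested genes. H2-D1, a classical class I heavy chain, was at 160, 174 and 135 CPM in Alox5ko_TAC and 122, 133 and 136 CPM in Alox5ko_NS, against 162, 123 and 110 CPM in WT_TAC and 150, 145 and 177 CPM in WT_NS, with a response difference of 0.52 (SE 0.182, adjusted p = 0.822). Tap1, a subunit of the peptide transporter into the ER, had 0.70 (SE 0.261, adjusted p = 0.842), and B2m, the class I light chain, 0.38 (SE 0.190, adjusted p = 0.928). H2-Q7 had 0.89 (SE 0.394, adjusted p = 0.910), and reads of class I genes may be shared among near-identical copies. Summed over the list, the level was 757, 736 and 632 CPM in Alox5ko_TAC and 608, 639 and 653 CPM in Alox5ko_NS, against 798, 634 and 604 CPM in WT_TAC and 746, 704 and 846 CPM in WT_NS. WT_TAC 1 and WT_NS 3 were the 2 highest libraries, and the number of members at an unadjusted p under 0.05 was 1 without WT_NS 3 and 9 without WT_TAC 1. Without WT_TAC 3 the median was 0.21.

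Markers of macrophages, which can express both programs, had mostly positive values too. Of 12 macrophage markers, 10 had a positive response difference, with a median of 0.24. Only 1 (8.33%, against 5.34% of all tested genes) had an unadjusted p under 0.05. It was Cd163, a scavenger receptor of resident macrophages, at 0.62 (SE 0.253, adjusted p = 0.878). Csf1r, the receptor for macrophage colony-stimulating factor, had 0.41 (SE 0.1999, adjusted p = 0.925), Adgre1, which encodes F4/80, 0.48 (SE 0.254, adjusted p = 0.933), and C1qa, of complement C1q, 0.30 (SE 0.222, adjusted p = 0.999). The lowest value was that of Ccr2, the receptor of recruited monocytes, at -0.91 (adjusted p = 0.999). The 12 markers together reached 93.7, 123 and 103 CPM in Alox5ko_TAC and 96.0, 83.5 and 104 CPM in Alox5ko_NS, against 110, 81.1 and 77.9 CPM in WT_TAC and 106, 105 and 100 CPM in WT_NS, with no marker at 0 in every library. WT_TAC 1 was the highest WT_TAC library here, as in the interferon and class I lists, and without it 4 markers had an unadjusted p under 0.05, against 0 without Alox5ko_TAC 2. In bulk tissue, fewer cells of a type and less RNA per cell cannot be told apart, and the part of macrophages in the interferon result was not tested. Endothelial markers had 11 of 12 positive values with a median of 0.18, and T cell and neutrophil markers were mostly too low to be tested, with 2 and 3 of 10 tested.

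Complement genes had a median of 0.20, with 15 of 20 positive. At an unadjusted p under 0.05 there were 2 (10.0%), against 5.34% of all tested genes. Without WT_TAC 3 the median was 0.10, without Alox5ko_TAC 3 no member had an unadjusted p under 0.05, and without Alox5ko_TAC 1 there were 4. The highest value was that of Cfd, adipsin, which is also an adipocyte marker, with 0, 5 and 34 counts in Alox5ko_TAC and 2, 5 and 7 in Alox5ko_NS, against 3, 5 and 4 in WT_TAC and 16, 17 and 16 in WT_NS. Most of its Alox5ko_TAC counts came from Alox5ko_TAC 3, and its fitted response difference was 3.63 (SE 1.38, adjusted p = 0.868). C5ar1, the receptor for C5a, had 1.38 (SE 0.559, adjusted p = 0.868), Cfp, properdin, 0.60 (SE 0.292, adjusted p = 0.925), and Cd55, which speeds decay of the C3 convertase, -0.40 (SE 0.286, adjusted p = 0.999). C4b rose in Alox5ko_TAC by 1.39 and in WT_TAC by 1.49 (adjusted p = 0.0445 and 0.0471), with a response difference of -0.10 (SE 0.413, adjusted p = 0.999); each call was kept with 1 of 6 libraries left out, and reads may be shared with its near-identical copy C4a.

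**Figure D3:**
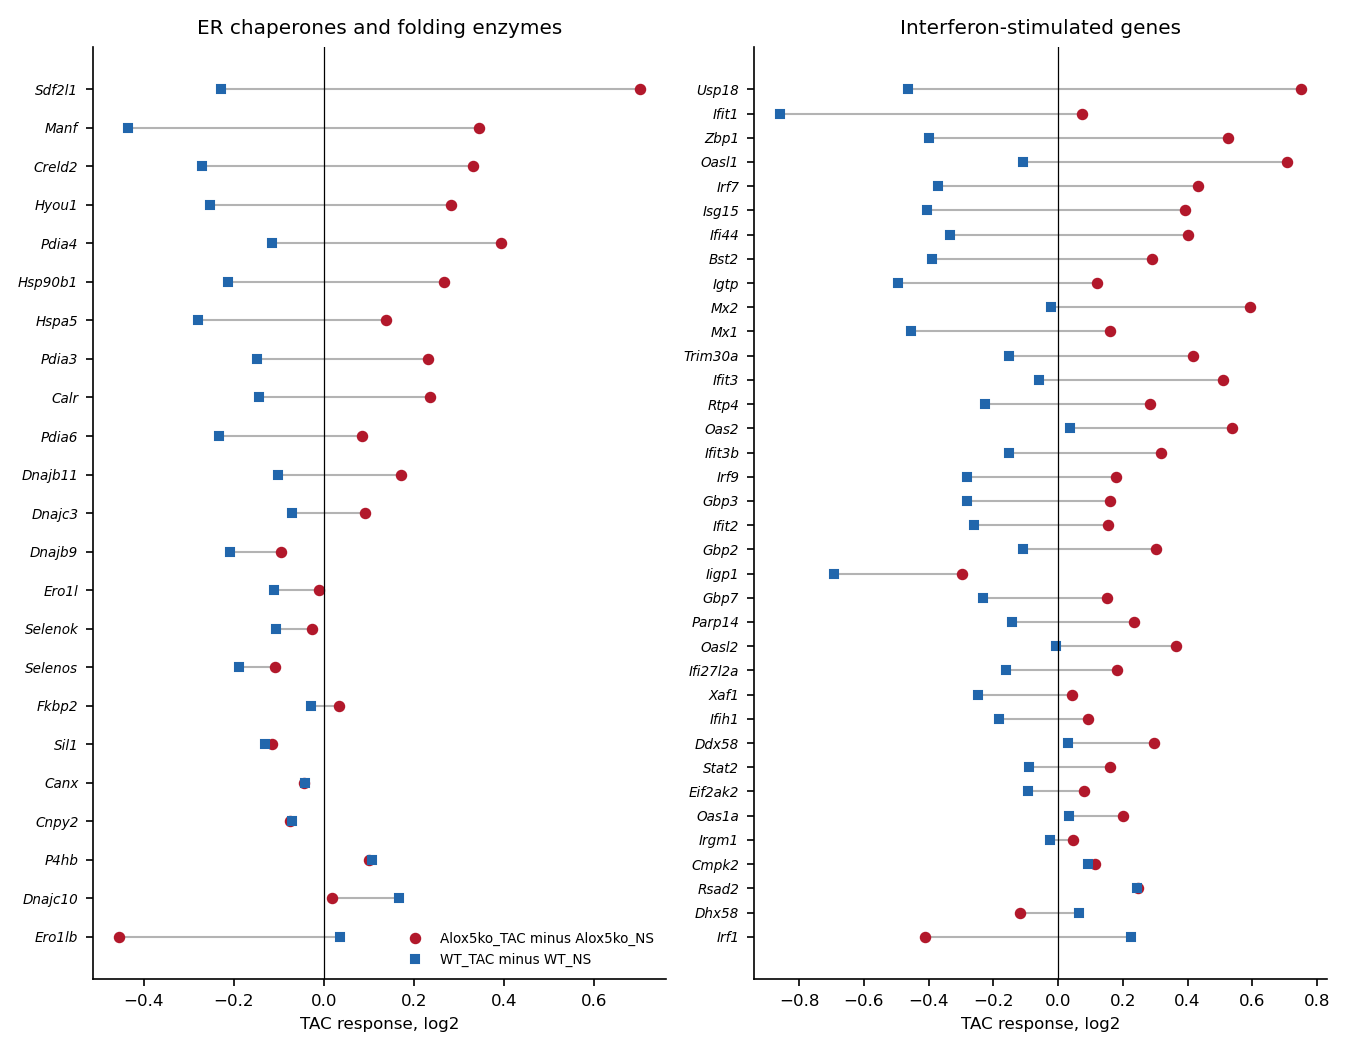
TAC response (log2) of tested members of 2 lists, ordered by the response difference, with red circles for Alox5ko_TAC minus Alox5ko_NS and blue squares for WT_TAC minus WT_NS. Red lies to the right of blue for 18 of 23 ER chaperones and folding enzymes and for 34 of the 36 interferon-stimulated genes shown, and 13 and 28 of them have red above 0 and blue below 0.

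Clock genes had values of both signs, and the list was singled out after its values were seen. Of 20 tested, 4 had a positive and 2 a negative value at an unadjusted p under 0.05, and the median was 0.06. Per2 and Cry1, of the arm that represses CLOCK and BMAL1, were positive: Per2 was at 3.61, 3.11 and 5.26 CPM in Alox5ko_TAC and 2.99, 1.79 and 2.40 CPM in Alox5ko_NS, against 2.16, 1.63 and 1.13 CPM in WT_TAC and 2.54, 2.59 and 4.26 CPM in WT_NS, and Cry1 at 8.87, 10.7 and 10.5 CPM in Alox5ko_TAC and 9.42, 7.91 and 7.51 CPM in Alox5ko_NS, against 7.37, 8.92 and 8.13 CPM in WT_TAC and 10.4, 11.8 and 10.5 CPM in WT_NS. Per2 had a response difference of 1.67 (SE 0.389, adjusted p = 0.537), with the Alox5ko_TAC libraries above all of WT_TAC, and Cry1 of 0.69 (SE 0.175, adjusted p = 0.537). Nr1d1 and Nr1d2, which encode the REV-ERB repressors, had negative values of -0.50 and -0.61 (adjusted p = 0.624 and 0.693), and Nfil3, a repressor linked to the clock, and Npas2, a partner of BMAL1, had 0.49 and 0.52 (adjusted p = 0.634 and 0.889). The labels give no time of day for the samples. The E-box CACGTG, through which CLOCK and BMAL1 act, occurred in 6 of the 22 windows of 17 clock genes (27.3%), a window of Cry1 among them, against 7.15% of all windows. The 250 bases before the start of Cry1 (chr10:85185055-85185304, minus strand) are given with the E-box in capitals, 60 bases before the start.
Cry1: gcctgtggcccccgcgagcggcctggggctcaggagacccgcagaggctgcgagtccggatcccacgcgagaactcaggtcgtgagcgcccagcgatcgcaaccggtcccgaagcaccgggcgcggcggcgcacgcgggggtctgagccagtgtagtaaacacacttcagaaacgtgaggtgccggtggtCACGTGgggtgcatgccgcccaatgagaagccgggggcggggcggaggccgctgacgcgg

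Genes of the fetal and hypertrophic program had a median response difference of 0.35, with 17 of 23 tested members positive and none at an unadjusted p under 0.05. The median TAC value was 1.01 in Alox5ko and 0.58 in WT, and the members called in a simple comparison were 4 in Alox5ko (Nrap, Xirp2, Enah and Pfkp) and 2 in WT (Nrap and Des), all higher with TAC, against 0.731% and 0.471% of all tested genes called higher. Nrap, which takes part in building myofibrils, rose in both, by 0.80 in Alox5ko_TAC and 0.64 in WT_TAC (adjusted p = 0.00902 and 0.0385), a call kept in Alox5ko with each of 6 libraries left out and in WT with none, and lost in WT with a block within WT (adjusted p = 0.0641). Des, desmin, the intermediate filament of muscle, rose in WT_TAC by 0.56 (adjusted p = 0.0340), a call also lost without any 1 of the 6 libraries. Xirp1, a protein of the intercalated disc, was at 389, 262 and 378 CPM in Alox5ko_TAC and 190, 193 and 129 CPM in Alox5ko_NS, against 300, 272 and 236 CPM in WT_TAC and 176, 249 and 186 CPM in WT_NS, with a response difference of 0.60 (SE 0.293, adjusted p = 0.928). Pfkp, a phosphofructokinase, rose in Alox5ko_TAC by 0.56 (adjusted p = 0.0330), and its response difference was 0.32 (SE 0.175, adjusted p = 0.955); that call was lost with a block within WT (adjusted p = 0.0557), and it and those of Xirp2 and Enah were kept with 1 of 6 libraries left out. Rcan1, a calcineurin inhibitor, had 0.71 (SE 0.424, adjusted p = 0.969), and Tpm2, a tropomyosin, 0.35 (SE 0.211, adjusted p = 0.964), and for Tpm2 the Alox5ko_NS libraries were below the other 9.

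The natriuretic peptide gene Nppa had a response difference of -0.15 (SE 0.733, adjusted p = 0.999) and the slow myosin gene Myh7 of -0.10 (SE 0.273, adjusted p = 0.999), and Nppb and Ankrd1 had 0.67 and 0.66 (adjusted p = 0.999 and 0.999). The summed level of the list was 25130, 16320 and 23910 CPM in Alox5ko_TAC and 12800, 12910 and 11270 CPM in Alox5ko_NS, against 23600, 18860 and 16340 CPM in WT_TAC and 12150, 15180 and 12900 CPM in WT_NS. Alox5ko_TAC 2 was low among the Alox5ko_TAC libraries and WT_TAC 1 high among those of WT_TAC. Without WT_NS 2 the median was 0.18 with none at an unadjusted p under 0.05. Without Alox5ko_TAC 2 it was 0.50 with 6 members at an unadjusted p under 0.05, and without Alox5ko_TAC 2 and WT_TAC 1 together it was 0.61 with 9. Leaving out the lowest Alox5ko_TAC and the highest WT_TAC library of this list raises its response difference by that choice, so this run is no support. The highest values of the list belonged to atrial genes, Mybphl at 3.06 and Myl7 at 2.40 (adjusted p = 0.999 and 0.999), and these varied between libraries of 1 group.

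Atrial markers summed to 875, 318 and 1360 CPM in Alox5ko_TAC and 206, 237 and 327 CPM in Alox5ko_NS, against 1387, 808 and 682 CPM in WT_TAC and 405, 286 and 220 CPM in WT_NS, a sum that Nppa leads. Their median response difference was 0.26, with 4 of 8 positive, and was -0.52 without Alox5ko_TAC 3. Myl4, the atrial light chain, had the highest response difference of all genes with a mean log2 CPM of 3 or more, and was at 7.98, 1.65 and 77.9 CPM in Alox5ko_TAC and 1.34, 1.49 and 29.1 CPM in Alox5ko_NS, against 50.8, 6.05 and 15.6 CPM in WT_TAC and 60.2, 14.3 and 23.8 CPM in WT_NS. Alox5ko_TAC 3 held most of its Alox5ko_TAC level, its response difference was 1.93 (SE 2.15, adjusted p = 0.999), and without that library it was -0.64. The transcription factor genes Tbx5 and Nr2f2 had -0.35 and -0.49, Stard10 had -0.34 and the sarcoplasmic regulator Sln 2.39 (adjusted p = 0.925, 0.964, 0.977 and 0.999). The part of atrial tissue in the fetal list was not tested. Skeletal muscle markers, of which 6 of 10 were tested, had a median of 0.38, and of 0.17 without Alox5ko_TAC 1, with none at an unadjusted p under 0.05. Mylpf had 0.43, Tnnc2 0.64, Tnnt3 -0.35 and Atp2a1 0.32 (adjusted p = 0.977, 0.999, 0.999 and 0.999).

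Mitochondrially encoded genes, which specify subunits of the respiratory chain, were the list with the lowest median. Of 13, 12 had a negative response difference, with a median of -0.23. At an unadjusted p under 0.05 there were 4 (30.8%, against 5.34% of all tested genes), all 4 negative. Alox5ko_NS had the highest mean level for 12 of the 13, against 27.49% of all tested genes. mt-Nd5, of complex I, was at 23270, 24920 and 26210 CPM in Alox5ko_TAC and 31790, 31480 and 36300 CPM in Alox5ko_NS, against 25730, 28990 and 29530 CPM in WT_TAC and 29130, 25990 and 29240 CPM in WT_NS. Every Alox5ko_NS library was above the other 9, and mt-Nd5 fell in Alox5ko_TAC by 0.42 (adjusted p = 0.0210) against -0.00 in WT (adjusted p = 0.996). Its response difference was -0.42 (SE 0.121, adjusted p = 0.624). mt-Nd4l and mt-Nd6 fell in Alox5ko_TAC by 0.44 each (adjusted p = 0.0210 and 0.0299), with response differences of -0.41 and -0.45 (adjusted p = 0.634 and 0.635), and mt-Cytb, of complex III, had -0.34 (SE 0.117, adjusted p = 0.755). The calls in Alox5ko of mt-Nd4l, mt-Nd5 and mt-Nd6 were kept with 3, 2 and 2 of 6 libraries left out.

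mt-Te, a mitochondrial transfer RNA gene among the 30 smallest p-values, fell in Alox5ko_TAC by 0.55 (adjusted p = 0.0153), lost without Alox5ko_NS 3 or Alox5ko_TAC 1, and had a response difference of -0.57 (SE 0.149, adjusted p = 0.537). The share of counts on the 13 genes was 15.3% ± 1.08 in Alox5ko_TAC and 18.8% ± 1.62 in Alox5ko_NS, against 16.2% ± 0.811 in WT_TAC and 16.8% ± 0.813 in WT_NS (SD, n = 3). Alox5ko_NS 3 was highest, at 20.7%, and without it the median of the list was -0.17. With library totals alone the median was -0.16. The 74 nuclear subunits of the respiratory chain had a median of -0.03, with none at an unadjusted p under 0.05. Alox5ko_NS had the highest mean level for 69 of these 74 and for 30 of 34 genes of fatty acid oxidation. A high level in Alox5ko_NS was thus not particular to the mitochondrially encoded genes.

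Of the Runx list, 8 of 15 members were tested, 6 of them with a positive response difference and a median of 0.23. Runx3 had 1.35 (SE 0.492, adjusted p = 0.842) and Runx1 1.16 (SE 0.493, adjusted p = 0.886), 2 transcription factors at under 4 CPM in every library. Runx1 was at 1.44, 1.42 and 2.77 CPM in Alox5ko_TAC and 0.710, 0.746 and 1.29 CPM in Alox5ko_NS, against 2.44, 0.901 and 1.36 CPM in WT_TAC and 1.77, 1.56 and 1.75 CPM in WT_NS, with the Alox5ko_NS group lowest. Alpl, alkaline phosphatase, had 0.28 (SE 0.196, adjusted p = 0.999), and Spp1, osteopontin, which Runx2 induces in bone, -0.69 (SE 1.01, adjusted p = 0.999); without WT_TAC 1 the value of Spp1 was 0.17. The median of the list was 0.01 without WT_TAC 2 and 0.48 without WT_TAC 1.

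**Figure D4:**
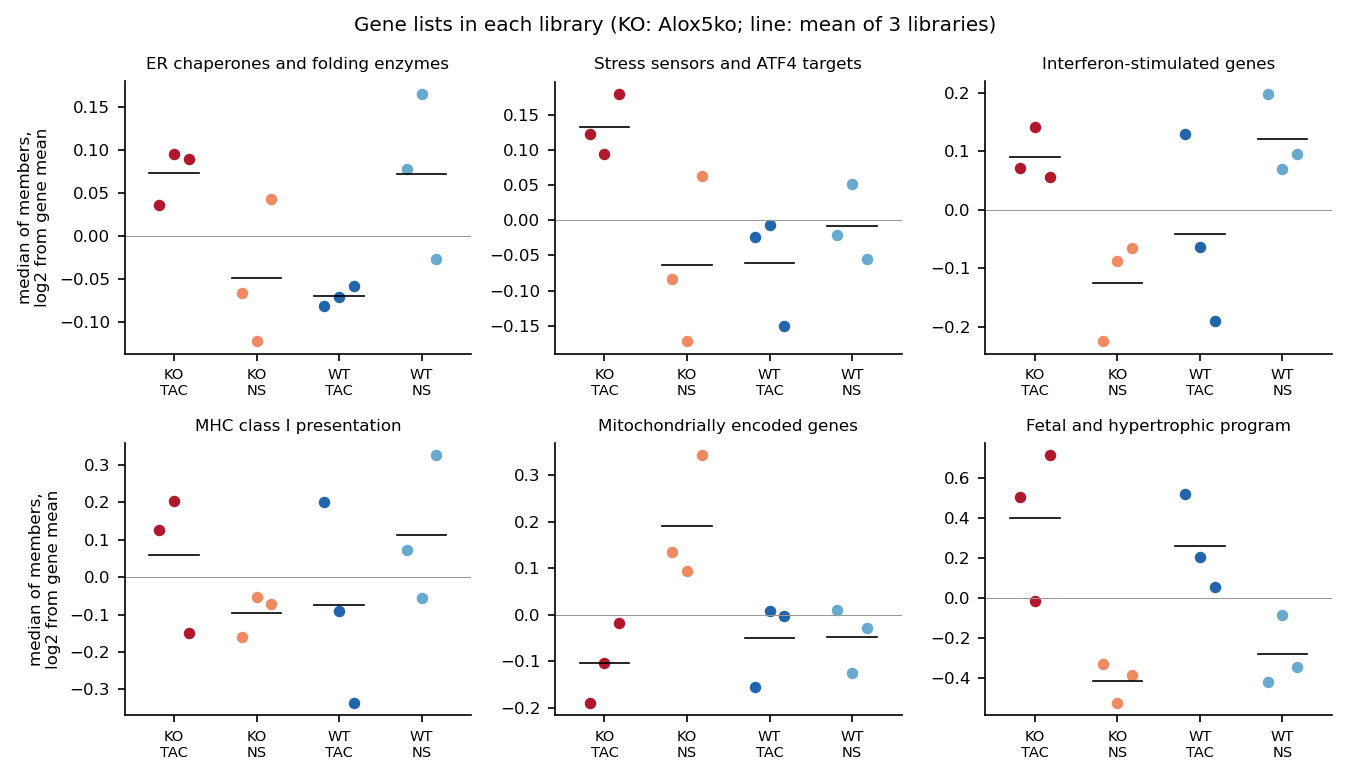
Score of 6 gene lists in each library, the median over tested members of log2 CPM from the gene's mean over 12 libraries (y axes); points are libraries, lines the mean of 3, and KO stands for Alox5ko. Alox5ko_TAC is above Alox5ko_NS in every library for the interferon-stimulated, fetal and stress lists, Alox5ko_NS is highest for mitochondrially encoded genes, and WT_TAC 1, the leftmost of the WT_TAC points, is high for the interferon and class I lists.

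**Figure D5:**
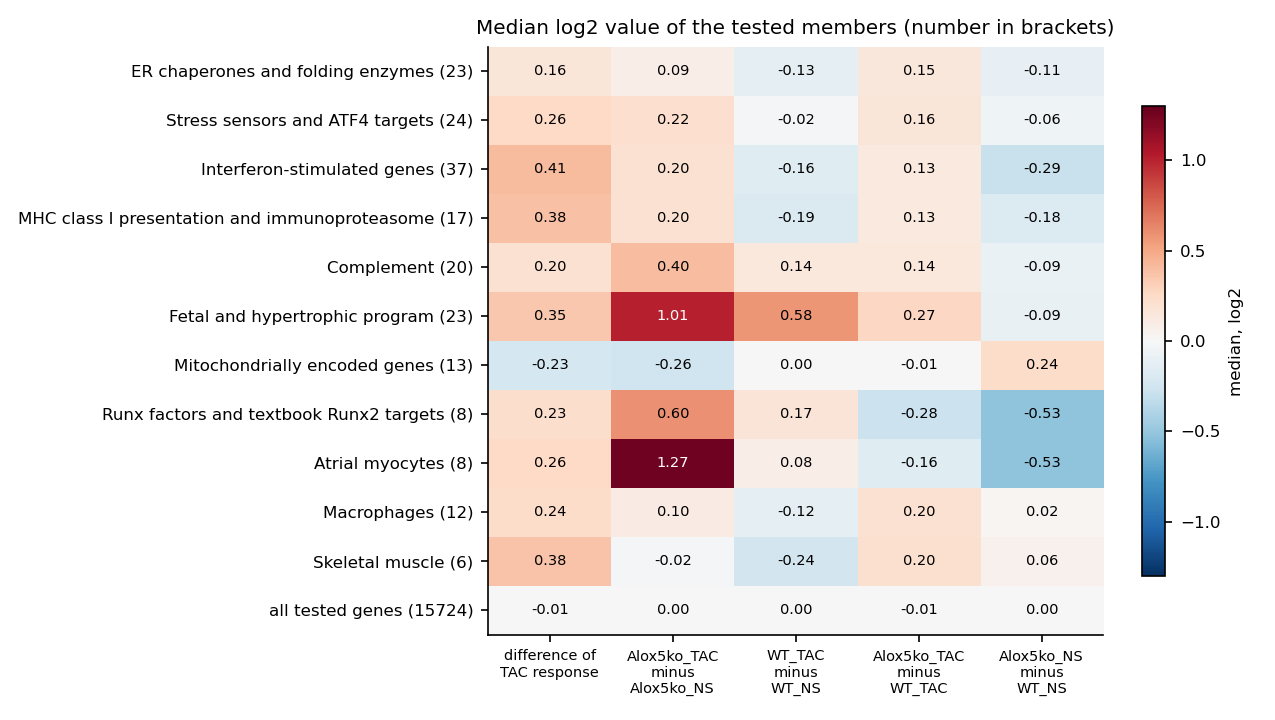
Median log2 value of the tested members of 11 lists and of all tested genes (rows, number of genes in brackets) in 5 comparisons (columns), with red for positive and blue for negative medians. The interferon and class I lists are positive in Alox5ko_TAC minus Alox5ko_NS and negative in WT_TAC minus WT_NS, while the fetal list is positive in both.

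The 10 highest response differences among genes with a mean log2 CPM of 3 or more were those of Myl4, Atf3, Otud1, Errfi1, Nr4a3, Hspa1a, Gadd45g, Hspa1b, Ddit4 and Arid5a, from 1.93 to 0.96. Atf3 and Nr4a3 belong to the list of immediate early genes, which switch on soon after a stimulus. That list went both ways, with 17 of 32 positive and a median of 0.13. At an unadjusted p under 0.05 it had 1 positive and 2 negative (9.38%, against 5.34% of all tested genes). Egr1 and Nab2, among the 10 lowest values, belong to it too. Values of the 10 highest genes could differ widely among libraries of 1 group: Nr4a3, an orphan nuclear receptor, was at 16.9, 40.2 and 12.7 CPM in Alox5ko_TAC and 16.6, 28.1 and 20.5 CPM in Alox5ko_NS, against 11.5, 2.40 and 11.7 CPM in WT_TAC and 20.5, 19.5 and 14.01 CPM in WT_NS, and its response difference was 1.19 (SE 0.828, adjusted p = 0.999). WT_TAC was the lowest group, with 2.40 CPM in WT_TAC 2. Gadd45g, a stress-induced growth arrest gene, had 1.12 (SE 0.433, adjusted p = 0.881), the deubiquitinase gene Otud1 1.42 (SE 0.693, adjusted p = 0.932), and Arid5a, an RNA-binding regulator of inflammation, 0.96 (SE 0.435, adjusted p = 0.925). Hspa1a and Hspa1b, near-identical copies of inducible HSP70 whose reads can be shared, had 1.15 (SE 0.715, adjusted p = 0.978) and 1.11 (SE 0.957, adjusted p = 0.999).

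The 10 lowest were those of Rn18s-rs5, Irf2bp1, Egr1, Glrx5, Dcun1d5, Nab2, Bri3, Map1lc3a, Tcf15 and Akap5, from -1.45 to -0.89. Egr1, an early growth response factor, was at 24.1, 21.8 and 20.9 CPM in Alox5ko_TAC and 9.94, 10.8 and 20.9 CPM in Alox5ko_NS, against 25.03, 124 and 35.7 CPM in WT_TAC and 11.8, 24.5 and 9.88 CPM in WT_NS. WT_TAC 2 had 2904 counts of Egr1 and was far above the other libraries, and the response difference was -1.31 (SE 0.917, adjusted p = 0.999). Nab2, a corepressor that Egr1 induces, was at 20.2, 21.3 and 23.5 CPM in Alox5ko_TAC and 17.1, 17.0 and 19.03 CPM in Alox5ko_NS, against 54.6, 26.8 and 49.5 CPM in WT_TAC and 21.04, 12.9 and 16.6 CPM in WT_NS. Gm16229, on the opposite strand, shares 35.7% of its exon bases. All WT_TAC libraries were above the other 9, and Nab2 rose in WT_TAC by 1.37 (adjusted p = 0.0445), a call kept only without WT_TAC 2, against 0.29 in Alox5ko (adjusted p = 0.670); its response difference was -1.08 (SE 0.355, adjusted p = 0.825), and -1.05 with a block within WT (adjusted p = 0.0331). Tcf15, a transcription factor of heart endothelium, and Akap5, a scaffold for protein kinase A, were also higher in every WT_TAC library than in the other 9, with response differences of -0.90 (SE 0.385, adjusted p = 0.889) and -0.89 (SE 0.442, adjusted p = 0.932).

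Irf2bp1, Glrx5, Dcun1d5, Bri3 and Map1lc3a shared a library pattern rather than a group pattern. Map1lc3a, an autophagy protein gene, was at 65.6, 50.5 and 110 CPM in Alox5ko_TAC and 119, 114 and 116 CPM in Alox5ko_NS, against 99.1, 108 and 114 CPM in WT_TAC and 116, 76.8 and 62.2 CPM in WT_NS. Glrx5, of iron-sulfur cluster assembly, was at 13.6, 14.3 and 43.8 CPM in Alox5ko_TAC and 46.4, 53.1 and 39.3 CPM in Alox5ko_NS, against 28.0, 42.1 and 35.5 CPM in WT_TAC and 50.6, 22.6 and 14.2 CPM in WT_NS. In all 5 genes Alox5ko_TAC 3 was the highest of its group and WT_NS 1 the highest of its group. Their response differences had adjusted p-values of 0.925 to 0.986, and the part of these libraries was not tested. Rn18s-rs5 overlaps 2 other gene models, Gm42418 and AY036118, and is a ribosomal RNA gene in libraries made from polyadenylated RNA, at 368, 540 and 252 CPM in Alox5ko_TAC and 648, 338 and 804 CPM in Alox5ko_NS, against 1153, 659 and 626 CPM in WT_TAC and 511, 380 and 490 CPM in WT_NS.

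Alox5ko_TAC was the highest group for Hist2h2aa1, Hist2h2ab and Hist2h2ac, histone genes on chromosome 3 that were chosen after their values were seen. Hist2h2aa1 (96245497 to 96246082), which encodes histone H2A and has near-identical copies, had 65, 67 and 76 counts in Alox5ko_TAC and 13, 17 and 16 in Alox5ko_NS, against 9, 14 and 11 in WT_TAC and 9, 19 and 8 in WT_NS. All Alox5ko_TAC libraries were above the other 9. It rose in Alox5ko_TAC by 2.37 (adjusted p = 0.000258), a call kept with each of 6 libraries left out. Its response difference was 2.41 (SE 0.469, adjusted p = 0.506), with an unadjusted p = 5.42e-05, and the TAC value was -0.05 in WT (adjusted p = 0.978). The summed CPM in Alox5ko_TAC was 5.32 times that in Alox5ko_NS (95% counting interval 3.85 to 7.49), and 6.02 and 5.70 times those in WT_TAC and WT_NS. Hist2h2ab (96219865 to 96220308) and Hist2h2ac (96220361 to 96220880) lie next to each other on opposite strands. Hist2h2ab was 26.7 times higher in Alox5ko_TAC than in Alox5ko_NS (95% counting interval 12.7 to 67.5), 52.1 times higher than in WT_TAC (17.5 to 255) and at least 52.3-fold higher than in WT_NS, where it had 0 counts, set at a floor of 3 over the group. Its fitted response difference of 1.39 (SE 2.46) depends on the prior count and is no bound. Hist2h2ac was 50.6 times higher in Alox5ko_TAC than in Alox5ko_NS (13.6 to 424), with 86 counts over 3 libraries against 2. These intervals cover counting error only. The gene models Gm15444, Gm44492, Gm20633, Gm20634 and AC125099.1 share exon bases with these genes, so their values are not separate. Hist2h2ab and Hist2h2ac reached the count limit only in the 3 Alox5ko_TAC libraries, so they had to differ, and their ratios are a description. Of 70 replication-dependent histone genes listed, 16 were tested, and 4 of them would not have reached the limit without Alox5ko_TAC. Of the 16, 3 had an unadjusted p under 0.05, against 5.34% of all tested genes. They were Hist2h2aa1, Hist1h2be and Hist2h2ac, of which Hist2h2ac had to differ. Other tested Hist2 genes, Hist2h2aa2, Hist2h2be and Hist2h3c2, had unadjusted p-values of 0.191, 0.288 and 0.431 for the response difference. Hist2h2aa2 had 15191 counts over the 12 libraries, against 324 of Hist2h2aa1.

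Of 52 lists, 47 had at least 5 tested members, and 10 of these had a median at least 0.2 from that of all genes. The ER list fell short of that limit, and the 36 others had medians from -0.19 to 0.18. Among them were the 33 tested heat shock genes of the cytosol (0.14), 48 collagen and matrix genes (0.15), 34 genes of fatty acid oxidation (-0.01), 30 sarcomere genes (-0.06) and 27 genes of leukotriene and prostanoid synthesis (0.03). Of the last, Alox5ap, the activator of 5-lipoxygenase, had 0.59 (adjusted p = 0.889) and Tbxas1, thromboxane synthase, 0.93 (adjusted p = 0.889).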

How the data were processed

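The deposited table holds raw counts per gene for 12 libraries of mouse left ventricle RNA. Per the labels' protocols, RNA was extracted with TRIzol, selected with oligo(dT), made into directional libraries and sequenced as pairs of 150 bases. HISAT2, DESeq2 and the builds mm10 and GRCh38 appear in the submitters' processing notes without versions. The counter, annotation and strand setting are not given in the sources used here.

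Genes with 10 or more counts in at least 3 libraries were fitted in edgeR 4.0.16 (R 4.3.3) with TMM scaling, 1 coefficient per group over all 12 libraries, a robust quasi-likelihood F test and Benjamini-Hochberg adjustment over all tested genes, with calls at an adjusted p under 0.05. Library totals were 20889431 to 27311196 counts, and counting intervals cover counting error only. The script was tested on simulated data. Alternatives were DESeq2 1.42.0, limma-voom 3.58.1, other scalings and filters, a replicate block over all groups, within WT and within each genotype, and left-out libraries. Deviations from group means correlated between same-numbered TAC and NS libraries at 0.181, 0.185 and 0.149 in WT, and at -0.101, 0.248 and 0.145 in Alox5ko. Differently numbered TAC and NS libraries ran from -0.214 to 0.00418 in WT, but reached 0.192 in Alox5ko (Alox5ko_TAC 1 with Alox5ko_NS 3). Between genotypes, same-numbered libraries ran from -0.222 to 0.149, and Alox5ko_TAC 1 with WT_NS 2 had 0.184. Values as high as those in WT thus occur without a shared number, and the labels give no pairing, so a pairing of libraries is not established. Figures and lists used Python 3.11.15 with pandas 2.3.3, scipy 1.17.1 and matplotlib 3.10.9.

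List scores are medians over members of log2 CPM (prior count 2) from each gene's mean. Named genes were Alox5, Runx2 and Egr1; all called genes; the 30 smallest p-values with a mean log2 CPM of 1 or more, predicted models left out; the 10 highest and 10 lowest values with a mean log2 CPM of 3 or more; up to 4 genes of each list with at least 5 tested members and a median at least 0.2 from that of all genes; and list members singled out as highest or lowest. Other names were chosen after their values were seen. The members and lists were chosen with earlier results of these data known. Promoter windows are RefSeq's. A few single genes are not reported here, though counts over all genes and lists include them.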

Additional observations from a re-analysis of the deposited data

How the results depend on the processing

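The response difference had 1 call with DESeq2, 1 with limma-voom, 1 with a replicate block (Errfi1, adjusted p = 0.0481) and 83 with no filter on low counts (44 positive, 39 negative), where the fitted prior degrees of freedom were infinite; it had 0 with the other scalings and filters, 0 to 1 with 1 library left out, and 1 without WT_TAC 1 and Alox5ko_TAC 2 together (2810474O19Rik, adjusted p = 0.00411). Genes at an unadjusted p under 0.05 numbered 1426 with no filter, 1376 without that pair of libraries, 924 with library totals alone and 600 to 1257 with 1 library left out. Alox5ko_TAC minus Alox5ko_NS had 369 calls with DESeq2, 756 with no filter, 532 without the pair and 47 to 375 with 1 library left out. WT_TAC minus WT_NS had 280, 538, 181 and 17 to 181. Alox5ko_TAC minus WT_TAC had 59, 252, 10 and 6 to 28, and 9 with predicted models left out. Alox5ko_NS minus WT_NS had 24, 116, 21 and 2 to 7, and 3 without robust estimation. The replicate block gave 173, 118, 22 and 6 calls in these 4 comparisons. A block within WT, added after the data were seen, gave 1 call for the response difference, 224 for Alox5ko_TAC minus Alox5ko_NS and 132 for WT_TAC minus WT_NS. A block within each genotype gave 4, 370 and 257. Among named genes, the block within WT ended the calls of Ifit1 and Nrap in WT and of Pfkp in Alox5ko, and added Errfi1, Runx3 and Uchl1 in WT (adjusted p = 0.0472, 0.0271 and 0.0498) and Pdia4 in Alox5ko (adjusted p = 0.0473). Alox5ko_TAC carried 1783 genes without the pair. Of 2133 values of 89 named genes under the alternatives, 8 changed sign. With 1 library left out, Alox5 ran from -0.00398 (without Alox5ko_NS 3; also negative without WT_TAC 2) to 0.31, Myl4 from -0.64 (without Alox5ko_TAC 3) to 4.79, Spp1 from -1.38 to 0.17 (without WT_TAC 1), Tnnt3 from -0.75 to 0.00907 (without Alox5ko_TAC 2) and Atp2a1 from -0.0396 (without Alox5ko_TAC 3) to 0.65. Without the pair, Spp1 had 0.60 and Tnnt3 0.34. The cause was not tested. The median size of the response differences, 0.15, was below their median SE of 0.21.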

Other observations

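Cytosolic heat shock genes, which fold proteins outside the ER, had a median response difference of 0.14, with 26 of 33 positive. At an unadjusted p under 0.05 there were 4 (12.1%), all positive, against 5.34% of all tested genes. Hsph1, of the HSP110 family, had 0.75 (adjusted p = 0.830), and Hspa8, the constitutive HSP70, 0.39 (adjusted p = 0.856). Dnajb4, a co-chaperone, and Hspb8 had 0.36 and 0.35 (adjusted p = 0.889 each). The 45 cytosolic ribosomal protein genes had a median of -0.06 with 5 positive and none at an unadjusted p under 0.05. The 20 aminoacyl-tRNA synthetases had a median of 0.05, with 14 positive.

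Among potassium and sodium channel genes 7 of 26 were positive, with a median of -0.14, and Kcnj5, a subunit of the acetylcholine-gated atrial potassium channel, had -0.38 (adjusted p = 0.868). Fasn, fatty acid synthase, had 0.53 (adjusted p = 0.650), the same sign as Thrsp. Dact1, a modulator of Wnt signalling, had -1.17 (adjusted p = 0.637). Pecam1, the endothelial adhesion molecule CD31, had 0.26 (adjusted p = 0.881). Pla2g5, a secreted phospholipase, had -0.54 (adjusted p = 0.925). These genes were chosen after their values were seen, and none of their response differences passed the threshold in the fit with no block.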
